A study of Homo sapiens with 12 samples.

Results

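The genes of the insulin-like growth factor (IGF) receptor axis and the insulin receptor substrates were followed in RNA-seq libraries of LNCaP, a line of human prostate cancer cells that responds to androgen. The 9 genes, taken by name from a deposited table of 34643 gene symbols, were the ligand IGF1, the receptors IGF1R, INSR and IGF2R, the substrates IRS1 and IRS2, and the binding proteins IGFBP2, IGFBP3 and IGFBP5. LNCaP cells had been transduced with pLKO.1 lentivirus expressing, from the U6 promoter, an shRNA targeting TMEFF2 (sh_TMEFF2, labelled shTMEFF2) or a scrambled control shRNA (sh_scramble, labelled shScramble), and had been selected in puromycin. Both lines were then depleted of androgen for 24 h in medium with 10% charcoal-stripped serum and given 10 nM dihydrotestosterone (DHT), an androgen, or ethanol vehicle for another 24 h, about 2.5 weeks after transduction. Each of the 2 lines thus had 3 libraries with vehicle (written −DHT) and 3 with DHT (+DHT), 12 in all. The 3 repeats of a group were separate treatments from 2 transductions, without a statement of which repeat came from which, so p-values measure the spread between these treatments, and the sources used here do not name the TMEFF2 shRNA of the sequenced cells. Of the 9 genes, 8 passed the filter on low counts and IGFBP5 did not.

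IGF1 binds IGF1R, a receptor tyrosine kinase at the cell surface that is closely related to INSR, the insulin receptor, and the active receptors phosphorylate IRS1 and IRS2, which recruit phosphoinositide 3-kinase (PI3K) and pass the signal to AKT. IGF2R, also the receptor for mannose 6-phosphate, has no kinase, and takes IGF2 to lysosomes for degradation. The IGF binding proteins hold the ligands outside the cell, and IGFBP3 is also known to restrain growth of prostate cells. In the prostate, signalling through IGF1R is known as a survival and growth signal that interacts with the androgen receptor.

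Counts per library ranged from 19450866 to 22612046, and levels are given as CPM, each library's counts scaled to a common total, after TMM normalization, which equalizes library composition. All 8 luminal prostate markers listed were detected, with a summed level of 4327 to 14490 CPM, whereas the basal markers summed to at most 1.77 CPM, with KRT5 at 0 in every library. Markers of fibroblasts or smooth muscle, of endothelium and of leukocytes summed to 20.2 to 42.8, 13.3 to 29.5 and 3.501 to 8.08 CPM, with 4 of 7, 2 of 3 and 1 of 3 genes of these lists past the filter on low counts. Those past it were COL1A1 (240 to 633 counts), COL3A1, PDGFRB and ACTA2, VWF (236 to 635 counts) and PECAM1, and PTPRC (63 to 170 counts), and those not past it were COL1A2, DCN and LUM, CDH5, and CD14 and CD3E. The target of the shRNA, TMEFF2, had 73.8 to 103.2 CPM in sh_scramble −DHT and 39.3 to 81.7 CPM in sh_TMEFF2 −DHT, and 117.0 to 173.3 and 90.1 to 142.1 CPM with DHT. Its level in sh_TMEFF2 was 0.744-fold that of sh_scramble without DHT (95% interval 0.512 to 1.08) and 0.754-fold with DHT (0.521 to 1.09), the lines overlapped, and neither difference passed the test (adjusted p = 0.503 and 0.304, edgeR). The names of the lines below are therefore those of the labels. Since these are bulk libraries, fewer cells with a transcript and less of it per cell cannot be told apart.

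With DHT in sh_scramble, 3 of the 8 tested members passed the test, IGF1R, IGF1 and IRS2, where 11.9% of all tested genes did. The 250 bases before the first start that RefSeq lists for each are shown because these genes rose in the same comparison. Promoter sequences of RefSeq (GRCh38.p14) were matched for all 9 genes, in 12 windows. Capitals mark matches, on either strand, to a forkhead (FOXO) element, GTAAACA or TGTTTAC, or to an insulin response element, TGTTTTG or CAAAACA. IGF1R (ENSG00000140443.15) lies at chr15:98648539-98964530 on the plus strand, with 21 exons in its reference transcript. IGF1 (ENSG00000017427.17) lies at chr12:102395874-102481744 with 4 exons, and IRS2 (ENSG00000185950.9) at chr13:109752695-109786583 with 2, both on the minus strand (GENCODE, GRCh38).
IGF1R promoter, chr15:98648289-98648538, plus strand: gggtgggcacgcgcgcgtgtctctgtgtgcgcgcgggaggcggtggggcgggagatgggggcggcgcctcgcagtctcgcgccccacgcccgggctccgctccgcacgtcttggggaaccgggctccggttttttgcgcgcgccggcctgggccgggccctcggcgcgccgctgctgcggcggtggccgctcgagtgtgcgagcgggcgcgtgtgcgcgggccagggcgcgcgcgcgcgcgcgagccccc
IGF1 promoter, chr12:102481748-102481997, minus strand: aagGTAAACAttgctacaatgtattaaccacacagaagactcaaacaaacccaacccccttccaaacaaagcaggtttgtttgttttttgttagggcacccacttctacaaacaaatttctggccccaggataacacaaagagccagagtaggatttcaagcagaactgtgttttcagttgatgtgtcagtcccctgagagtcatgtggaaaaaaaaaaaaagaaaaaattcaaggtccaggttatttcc
IRS2 promoter, chr13:109786584-109786833, minus strand: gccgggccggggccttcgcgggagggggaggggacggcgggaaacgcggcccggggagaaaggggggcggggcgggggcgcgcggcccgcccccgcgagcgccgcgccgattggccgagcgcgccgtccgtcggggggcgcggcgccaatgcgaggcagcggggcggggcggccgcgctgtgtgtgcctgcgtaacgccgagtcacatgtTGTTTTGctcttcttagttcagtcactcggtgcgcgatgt
The 3 windows differ in base composition, with 81.2% G and C for IGF1R, 76.4% for IRS2 and 39.6% for IGF1. The IGF1 window holds 1 forkhead match, from 247 to 241 bases before the start, and the IRS2 window 1 insulin response match, from 40 to 34 bases before it. Such matches stand in 2.98% and 4.30% of 35116 windows of this length. The androgen receptor half-site, AGAACA or TGTTCT, is in 12.4% of all windows and in none of these 3, and the palindromic full androgen response element, which contains that half-site at both ends around a spacer of 3 bases, was found in 1 window of the 35116. IGF1 has a second window, at chr12:102478551-102478800, with 44% G and C and no match to any of these motifs. Among the other members only IGFBP2 had a match, a half-site in 2 of its 3 windows.

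IGF1R, the receptor of the axis, rose more than 4-fold with DHT in control cells while its change in sh_TMEFF2 cells did not pass the test. In sh_scramble −DHT the libraries held 18.5, 26.7 and 27.7 CPM, and in sh_scramble +DHT 105.7, 110.2 and 97.2 CPM. Every library with DHT was above every library without, with means of 24.3 ± 5.05 and 104.3 ± 6.60 CPM (SD, n = 3). The fold change was 4.31 (95% interval 3.28 to 5.65), a log2 fold change of 2.11 (standard error 0.18, adjusted p = 4.2e-06, quasi-likelihood test of edgeR, adjusted over 15419 genes by the Benjamini-Hochberg method). In sh_TMEFF2 the libraries held 19.3, 28.5 and 24.0 CPM without DHT and 24.8, 31.2 and 37.8 CPM with it. These groups overlapped, and the fold change of 1.31 (95% interval 0.998 to 1.71) did not pass the test (adjusted p = 0.187, edgeR). Each same-numbered pair was higher with DHT, so a small rise is not excluded. None of the 23 alternatives, by edgeR, DESeq2 or limma-voom and blocks included, passed (adjusted p from 0.076 to 0.601). Without DHT the 2 lines overlapped, with a log2 difference of −0.02 (95% interval −0.41 to 0.38). With DHT, IGF1R was 3.34-fold lower in sh_TMEFF2, without overlap, at a log2 difference of −1.74 (standard error 0.18, adjusted p = 3.6e-05, edgeR). The DHT responses themselves differed by −1.72 on the log2 scale (standard error 0.25, adjusted p = 0.0020, edgeR), and over the 22 alternatives run this difference stayed between −1.87 and −1.56 with an adjusted p of at most 0.0074.

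FKBP5, an androgen-induced gene read as a control, rose from 55.0 to 71.1 CPM without DHT to 585 to 744 CPM with DHT in sh_scramble, and from 57.3 to 66.1 CPM to 86.1 to 136 CPM in sh_TMEFF2. The log2 responses of FKBP5 differed by −2.50 between the lines (adjusted p = 8.4e-05, edgeR). KLK3, which encodes prostate-specific antigen, rose in both lines, by log2 fold changes of 1.96 and 2.45 (adjusted p = 3.9e-05 and 1.1e-04, edgeR). Its level was lower in sh_TMEFF2, 5.40-fold without DHT and 3.85-fold with DHT (adjusted p = 2.8e-04 and 8.3e-05, edgeR). The difference of the KLK3 responses did not pass the test (adjusted p = 0.459, edgeR). The sh_TMEFF2 +DHT library with the most IGF1R, replicate 3 at 37.8 CPM, also had the most FKBP5 (136 CPM) and the most TMPRSS2 (449 CPM, against 110 and 162 CPM in the others). In sh_scramble +DHT, replicate 3 had the most TMPRSS2 (1735 CPM, against 800 and 826 CPM in the others) but the least IGF1R (97.2 CPM). Replicate 2 of that group had the most FKBP5 (744 CPM) and the most IGF1R (110.2 CPM). Whether these values are linked was not tested. Without sh_TMEFF2 +DHT replicate 3 the log2 response of IGF1R in sh_TMEFF2 was 0.24, and it lay between 0.24 and 0.53 when each library was left out in turn. The genes whose levels followed IGF1R most closely were HMGCS1, an enzyme of cholesterol synthesis, and TXNDC5, a protein disulfide isomerase of the endoplasmic reticulum, with Pearson correlations of 0.99 and 0.98 over the 12 libraries among 11155 genes of at least 5 CPM. This likeness is a description, since the libraries share their groups.

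**Figure D1:**
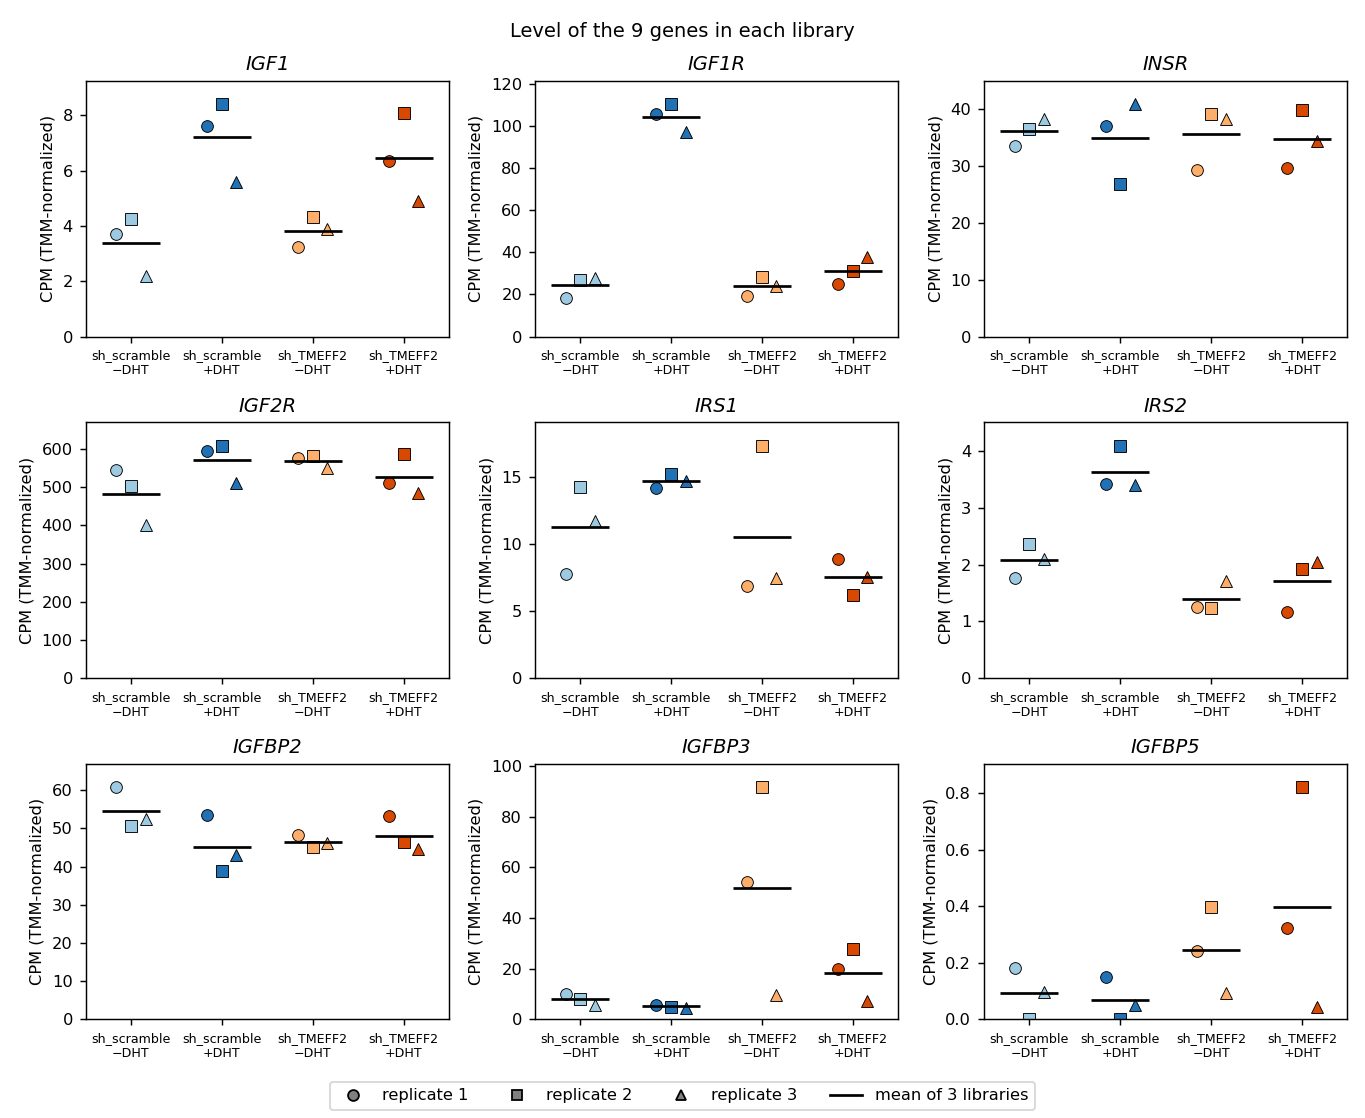
Level of each of the 9 genes (vertical axes, TMM-normalized CPM, each from 0) in the 12 libraries by group (horizontal axes), with symbols for the replicate number and a line at the mean of 3 libraries. IGF1R stood at 97.2 to 110.2 CPM in sh_scramble +DHT and at 37.8 CPM or below in the other groups, and IGFBP3 was above 10.1 CPM in 4 of the 6 sh_TMEFF2 libraries only.

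INSR, the closest relative of IGF1R, did not follow it. Its libraries ran from 33.4 to 38.2 CPM in sh_scramble −DHT, from 26.8 to 40.8 in sh_scramble +DHT, from 29.2 to 39.0 in sh_TMEFF2 −DHT and from 29.7 to 39.9 in sh_TMEFF2 +DHT. All 4 groups overlapped. The fold change with DHT was 0.966 in sh_scramble (95% interval 0.762 to 1.22) and 0.976 in sh_TMEFF2 (95% interval 0.770 to 1.24), so a change of 1.5-fold in either direction lies outside both intervals. The estimate itself was loose, as the 2 columns of one library gave 451.6 and 259.0 counts for INSR in sh_scramble −DHT replicate 2, and the sign of its small differences turned with the column used.

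Levels of different genes were set side by side as CPM per kb of the reference transcript. The ratio of IGF1R to INSR on this scale was 0.427, 0.565 and 0.560 in sh_scramble −DHT and 0.510, 0.564 and 0.485 in sh_TMEFF2 −DHT. With DHT it was 2.21, 3.19 and 1.84 in sh_scramble and 0.646, 0.605 and 0.849 in sh_TMEFF2. On this scale IGF1R mRNA was thus above INSR mRNA in the 3 libraries of sh_scramble +DHT and below it in the other 9. The order rests on the lengths used. In CPM not divided by length, IGF1R was also above INSR in sh_TMEFF2 +DHT replicate 3 (37.8 against 34.4 CPM). Which transcripts of the 2 genes these cells hold was not examined.

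**Figure D2:**
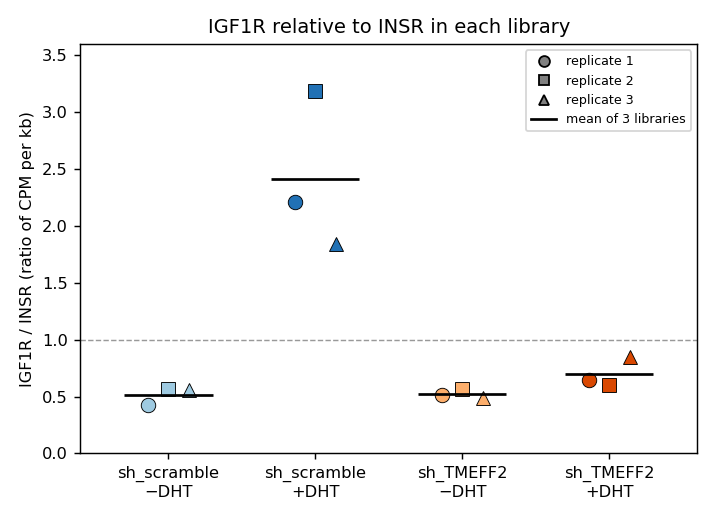
Ratio of IGF1R to INSR (vertical axis, both as CPM per kb of transcript) in each of the 12 libraries by group (horizontal axis), with a line at the mean of 3 libraries and a dashed line where the 2 levels are equal. The ratio was 1.84 to 3.19 in sh_scramble +DHT and at most 0.849 elsewhere.

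IGF2R, with IGFBP2 the most abundant member per kb by the mean over 12 libraries, passed no test. It held 402 to 546 CPM in sh_scramble −DHT, 512 to 609 in sh_scramble +DHT, 551 to 581 in sh_TMEFF2 −DHT and 486 to 586 in sh_TMEFF2 +DHT. Its fold changes with DHT were 1.18 in sh_scramble (95% interval 1.01 to 1.39, adjusted p = 0.109) and 0.926 in sh_TMEFF2 (95% interval 0.789 to 1.09, adjusted p = 0.551, edgeR). The difference of these responses, −0.36 on the log2 scale, had an adjusted p of 0.233 with edgeR, and of 0.025 when the replicate number within each line was a block. Part of the IGF2R exons overlaps those of the pseudogene CHP1P2 on the same strand, so a share of its counts is uncertain.

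IGF1, the ligand, was a low transcript that rose with DHT in control cells. It had 3.71, 4.26 and 2.20 CPM in sh_scramble −DHT, from 45 to 83 counts, and 7.62, 8.40 and 5.60 CPM in sh_scramble +DHT. The groups did not overlap, and IGF1 rose 2.12-fold (95% interval 1.44 to 3.14, adjusted p = 0.0080, edgeR). In sh_TMEFF2 the levels were 3.22, 4.34 and 3.90 CPM without DHT and 6.34, 8.08 and 4.90 CPM with it. Here too each library with DHT was above each without, by 1.68-fold (95% interval 1.14 to 2.48), but the adjusted p was 0.075 with edgeR, 0.033 with DESeq2 and 0.043 with edgeR without sh_scramble −DHT replicate 3. Same-numbered libraries of a line deviated together, and blocking on that number also brought IGF1 past the test in sh_TMEFF2 (adjusted p = 0.020 with 1 block per number, and 0.018 with the block within each line, edgeR). The responses of the lines, 1.09 and 0.75 on the log2 scale, differed by −0.34 (95% interval −1.12 to 0.45, adjusted p = 0.714, edgeR). Exons of IGF1 overlap the antisense transcript HELLPAR, and the counts are not known to use strand. The levels most like those of IGF1 over the 12 libraries were SYNCRIP (r = 0.93) and ECD (r = 0.92).

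Of IRS1 and IRS2, the docking proteins that link the receptors to PI3K, IRS2 was lower in sh_TMEFF2 by the test when DHT was present. IRS1 fell just short of it with edgeR. Statements that groups do not overlap describe 3 libraries against 3, and the share of all genes without overlap was not counted. IRS2 had 1.76, 2.36 and 2.10 CPM in sh_scramble −DHT and 3.43, 4.10 and 3.40 CPM in sh_scramble +DHT, a 1.75-fold rise (95% interval 1.21 to 2.54, adjusted p = 0.027, edgeR). In sh_TMEFF2 it had 1.25, 1.24 and 1.72 CPM without DHT and 1.16, 1.92 and 2.05 CPM with it, overlapping groups with a fold change of 1.22 (95% interval 0.824 to 1.80, adjusted p = 0.532, edgeR). With DHT, each sh_TMEFF2 library lay below each sh_scramble library, by 2.13-fold (log2 −1.09, standard error 0.25, adjusted p = 0.0100, edgeR). Already without DHT the IRS2 levels of the lines did not overlap, but the log2 difference of −0.56 did not pass (adjusted p = 0.365, edgeR). The difference of the DHT responses, −0.53 (95% interval −1.30 to 0.25), was not past the test either (adjusted p = 0.512, edgeR). The rise in sh_scramble rests on 39 to 84 counts per library and lost its call without sh_scramble −DHT replicate 1 (adjusted p = 0.101) or 3 (0.062) or sh_scramble +DHT replicate 2 (0.091, edgeR), and both calls were lost with the second column of each library alone. Exons of IRS2 overlap ENSG00000275741 on the other strand. IRS2 was most like AMACR, a racemase of branched-chain fatty acids, and TPD52, with r = 0.97 and 0.96 over the 12 libraries.

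IRS1 had 7.74, 14.2 and 11.7 CPM in sh_scramble −DHT, 14.2, 15.2 and 14.7 CPM in sh_scramble +DHT, 6.83, 17.3 and 7.43 CPM in sh_TMEFF2 −DHT and 8.89, 6.21 and 7.52 CPM in sh_TMEFF2 +DHT. The vehicle groups were spread widely, and the groups with DHT were tight and apart. With DHT the log2 difference between the lines was −0.96 (95% interval −1.65 to −0.28), just short of the test with edgeR (adjusted p = 0.057), and past it with DESeq2 (adjusted p = 0.014) and with limma-voom (adjusted p = 0.0496). It also passed without sh_TMEFF2 −DHT replicate 2, the library at 17.3 CPM (adjusted p = 0.0069), replicate 1 (0.043) or replicate 3 (0.0497) of that group, or sh_scramble −DHT replicate 1 (0.0489, edgeR), and over all alternatives the adjusted p ran from 0.0041 to 0.175. The log2 changes with DHT were 0.39 in sh_scramble and −0.48 in sh_TMEFF2, neither past the test (adjusted p = 0.389 and 0.365, edgeR), and the second became 0.081 without sh_TMEFF2 −DHT replicate 2.

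**Figure D3:**
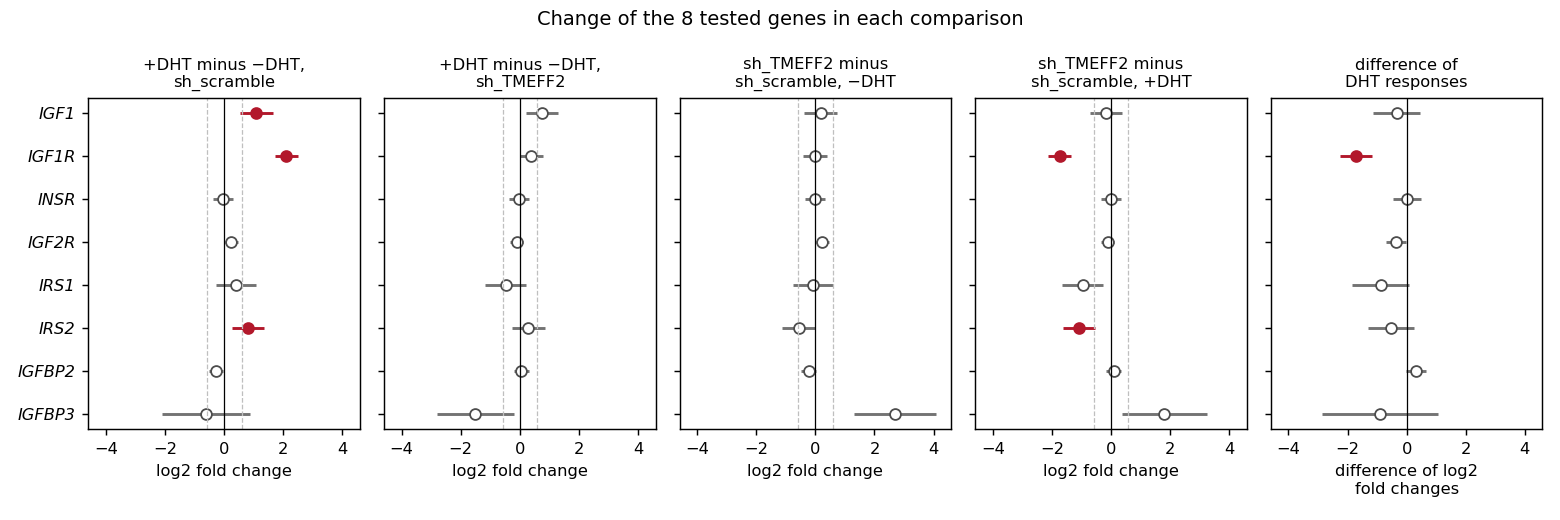
Log2 fold changes of the 8 tested genes (horizontal axes, with 95% intervals from edgeR) in 4 comparisons and, at the right, the difference of the DHT responses of the lines. Filled red symbols passed the test, dashed lines mark 1.5-fold, and IGF1R lay at 2.11 with DHT in sh_scramble, at −1.74 between the lines with DHT and at −1.72 for the difference.

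IGFBP3 was higher in 2 of the 3 sh_TMEFF2 repeats than in any control library. In sh_scramble it had 10.0, 8.12 and 5.63 CPM without DHT and 5.80, 5.08 and 4.65 CPM with it. In sh_TMEFF2 −DHT it had 54.3 and 91.7 CPM in replicates 1 and 2 and 9.65 CPM in replicate 3, and in sh_TMEFF2 +DHT 19.7 and 27.7 CPM in replicates 1 and 2 and 7.08 CPM in replicate 3. Replicate 3 of sh_TMEFF2 thus stood within the range of the controls without DHT and just above that of the controls with DHT. The fold difference between the lines was 6.53 without DHT (95% interval 2.49 to 17.1) and 3.504 with DHT (95% interval 1.30 to 9.45), and neither passed the test over all libraries (adjusted p = 0.072 and 0.084, edgeR). DESeq2 gave 0.0082 and 0.057, limma-voom 0.287 and 0.363. Without sh_TMEFF2 −DHT replicate 3 alone the adjusted p values were 0.0052 and 0.011, and without sh_TMEFF2 +DHT replicate 3 the difference with DHT had 0.044 (edgeR). With both sh_TMEFF2 libraries numbered 3 left out, a choice made after the values were seen, the log2 differences were 3.20 and 2.21 (adjusted p = 1.8e-04 and 4.1e-04, edgeR). In TMEFF2 mRNA those libraries had 81.7 CPM, the highest of sh_TMEFF2 −DHT, and 114.5 CPM, the middle of sh_TMEFF2 +DHT. The smooth muscle and fibroblast markers summed to 29.5 to 42.8 CPM in sh_TMEFF2 −DHT and 24.5 to 25.6 CPM in sh_scramble −DHT, and to 28.6 to 31.6 and 20.2 to 25.8 CPM with DHT. The leukocyte markers summed to 6.08 to 8.08 CPM in sh_TMEFF2 −DHT against 4.93 to 5.66 CPM in sh_scramble −DHT, and to 4.27 to 6.71 against 3.501 to 3.94 CPM with DHT. The part of either in the differences was not tested.

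IGFBP3 was lower with DHT in each sh_TMEFF2 pair of the same number, from 54.3 to 19.7, from 91.7 to 27.7 and from 9.65 to 7.08 CPM. The log2 fold change was −1.51 (95% interval −2.82 to −0.21, adjusted p = 0.122, edgeR). Blocked by replicate number it was −1.36 (adjusted p = 0.042), with the block within each line −1.28 (adjusted p = 0.0038), and without sh_TMEFF2 −DHT replicate 3 it was −1.999 (adjusted p = 0.0083, edgeR). In sh_scramble IGFBP3 was also lower with DHT in each numbered pair, at −0.62 on the log2 scale (adjusted p = 0.544, edgeR, and 0.089 with the block within each line). The responses differed by −0.90 (95% interval −2.86 to 1.06), which did not pass (adjusted p = 0.692, edgeR).

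IGFBP2 passed no test, and IGFBP5 was near 0. IGFBP2 had 50.6 to 60.8 CPM in sh_scramble −DHT, 38.8 to 53.5 in sh_scramble +DHT, 45.1 to 48.3 in sh_TMEFF2 −DHT and 44.5 to 53.2 in sh_TMEFF2 +DHT, and no comparison passed. Its fold changes with DHT were 0.826 in sh_scramble (95% interval 0.696 to 0.982, adjusted p = 0.095) and 1.03 in sh_TMEFF2 (95% interval 0.870 to 1.23, adjusted p = 0.837, edgeR). IGFBP5 had 4, 0 and 2 counts in sh_scramble −DHT, 3, 0 and 1 in sh_scramble +DHT, 5, 9 and 2 in sh_TMEFF2 −DHT and 7, 18 and 1 in sh_TMEFF2 +DHT. A count of 0 allows up to 3 counts, or 0.154 and 0.146 CPM in the 2 libraries where it stood, by counting error only. Of the 18 counts of the highest library 17.2 came from 1 of its 2 columns, and no fold change is given. IGFBP5 was lowest in replicate 3 within each sh_TMEFF2 group, as IGFBP3 was, but its counts are too near the floor to liken the 2 genes.

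**Figure D4:**
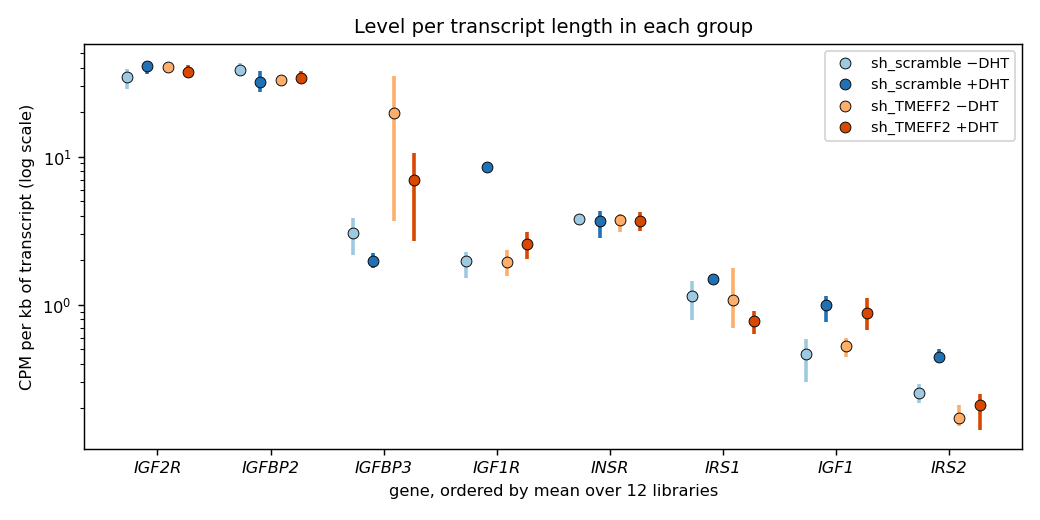
Level of the 8 tested genes as CPM per kb of the reference transcript (vertical axis, log scale) in the 4 groups, ordered along the horizontal axis by the mean over 12 libraries, with points at the group mean and bars from the lowest to the highest of 3 libraries. IGF2R and IGFBP2 stood at 27.4 CPM per kb or more in all libraries, and IRS2 at 0.503 or less.

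Pooled over all 12 libraries the order of mean levels per kb was IGF2R (mean 38.3 CPM per kb), IGFBP2 (34.3), IGFBP3 (7.95), IGF1R (3.76), INSR (3.73), IRS1 (1.12), IGF1 (0.717) and IRS2 (0.271). IGF2R and IGFBP2, at 28.6 to 43.3 and 27.4 to 43.0 CPM per kb, overlapped almost fully and do not differ beyond their spread. The ranges of IGFBP3 (1.78 to 35.1), IGF1R (1.51 to 9.01) and INSR (2.83 to 4.31) also overlapped, and their order differed between groups. IGFBP3 averaged 3.04 and 1.98 CPM per kb in sh_scramble without and with DHT, below INSR (3.81 and 3.68), and 19.8 and 6.95 in sh_TMEFF2, above it (3.75 and 3.66). This order of means did not hold in every library. In sh_TMEFF2 replicate 3 IGFBP3 had 3.69 CPM per kb without DHT, within the INSR range of 3.09 to 4.13. With DHT it had 2.71, below the INSR range of 3.14 to 4.22. In sh_scramble −DHT the ranges of IGFBP3 (2.15 to 3.84) and INSR (3.53 to 4.04) overlapped. Overlap was also seen for the ranges of IRS1 (0.635 to 1.77) with IGF1 (0.303 to 1.15), and of IGF1 with IRS2 (0.142 to 0.503). INSR and IRS1 did not overlap. Taking the longest annotated transcript left the order the same, although the value of IGFBP2 fell to 10.998 CPM per kb. For IGF1R, INSR, IRS1, IRS2 and IGF1 the reference transcript is also the longest. The check thus could not change the order of these genes or the ratio of IGF1R to INSR.

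The 8 tested members were also counted as a list. The members, and the list of other genes below, were chosen with earlier results of these data known. The shares of all genes set beside the counts are therefore a scale and not a test. Calls needed both 1.5-fold or more and an adjusted p no higher than 0.05, except that differences of responses needed the latter alone. With DHT in sh_scramble 3 of the 8 were called, all higher, where 11.9% of all 15419 genes were called, 5.45% higher and 6.45% lower, and the median log2 fold change was 0.32 for the members and −0.01 for all genes. With DHT in sh_TMEFF2 0 of the 8 were called with edgeR, against 4.88% of all genes (3.28% higher and 1.6% lower), at a median of 0.0063 beside −0.02, with 2 members at an unadjusted p under 0.05, 1 called with DESeq2 and 0 with limma-voom. With the replicate number as a block, in either form, edgeR called 2 there, IGF1 and IGFBP3. Between the lines without DHT the count was 0, against 0.571% of all genes (0.298% higher and 0.272% lower), with 3 at an unadjusted p under 0.05 (edgeR), 1 called with DESeq2 and 0 with limma-voom. With DHT 2 were called, both lower in sh_TMEFF2, against 6.77% of all genes (3.03% higher and 3.74% lower), at a median of −0.14 beside 0.0041, and 4 were called with no filter, with the 6 libraries alone or with the block. The difference of responses was called for 1 of the 8, against 4.94% of all genes (1.65% higher and 3.29% lower), at a median of −0.44 beside 0.0062. Shares of all genes under the alternatives that moved these counts are given below, with the dependence on the processing.

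The other genes of IGF and insulin signalling were read as a list of 58, of which 44 passed the filter. With DHT in sh_scramble 9 of the 44 (20.5%, against 11.9% of all genes) were called, 2 higher and 7 lower (median log2 fold change −0.06, against −0.01 for all genes). Over the alternatives the count ran from 6 with the first columns (11.1% of all genes) to 12 with library size only (12.5%). In sh_TMEFF2 1 was called (2.27% against 4.88%), lower. Between the lines 1 was called without DHT (2.27% against 0.571%), lower, and 2 with DHT (4.55% against 6.77%), 1 higher and 1 lower. The difference of responses was called for 4 (9.09% against 4.94%), namely GRB10, PIK3R1, PIK3R3 and MTOR.

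GRB10, an adaptor that binds IGF1R and INSR and dampens their signal, moved opposite to IGF1R. It held 556, 572 and 483 CPM in sh_scramble −DHT and 134, 126 and 126 CPM in sh_scramble +DHT, a log2 fold change of −2.06 (standard error 0.12, adjusted p = 2.2e-07, edgeR). In sh_TMEFF2 it held 802, 739 and 723 CPM without DHT and 556, 410 and 376 CPM with it, a log2 fold change of −0.75 (standard error 0.12, adjusted p = 0.0021, edgeR). Both falls were without overlap, and the one in sh_TMEFF2 was smaller, by 1.30 on the log2 scale (standard error 0.17, adjusted p = 9.5e-04, edgeR). With DHT GRB10 was 3.47-fold higher in sh_TMEFF2 (adjusted p = 2.1e-06, edgeR), while without DHT its log2 difference of 0.49 was not past the test (adjusted p = 0.077, edgeR).

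PIK3R1 and PIK3R3, which encode regulatory subunits of PI3K, fell with DHT in sh_scramble, by log2 fold changes of −0.65 (adjusted p = 0.0033) and −0.98 (adjusted p = 2.2e-06, edgeR). PIK3R1 went from 172 to 197 CPM in sh_scramble −DHT to 112 to 131 CPM with DHT, and in sh_TMEFF2 from 96.6 to 139 CPM to 128 to 175 CPM, overlapping groups with a log2 change of 0.31 that was not past the test (adjusted p = 0.163, edgeR). Its responses differed by 0.96 (standard error 0.19, adjusted p = 0.013, edgeR), and it was the gene called lower in sh_TMEFF2 without DHT (log2 −0.67, adjusted p = 0.035, edgeR). That last call was lost in 7 of the 12 fits without 1 library (any of the 3 sh_scramble −DHT libraries, replicate 2 of each other group or sh_TMEFF2 −DHT replicate 3, adjusted p up to 0.132) and with the 6 libraries alone (0.070, edgeR), and the cause was not tested. PIK3R3 went from 319 to 374 CPM to 161 to 183 CPM in sh_scramble and from 257 to 299 CPM to 212 to 226 CPM in sh_TMEFF2 (log2 −0.37, adjusted p = 0.0085, under 1.5-fold), responses that differed by 0.61 (standard error 0.11, adjusted p = 0.0068, edgeR).

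MTOR, the kinase of the growth-controlling mTOR complexes, rose with DHT in control cells, from 94.6 to 103.2 CPM to 193 to 200 CPM (log2 0.99, standard error 0.063, adjusted p = 3.4e-07, edgeR). In sh_TMEFF2 it went from 76.9 to 83.7 CPM to 99.8 to 112 CPM (log2 0.41, adjusted p = 0.0017, under 1.5-fold), and the responses differed by −0.57 (standard error 0.089, adjusted p = 0.0029, edgeR). With DHT it was 1.85-fold lower in sh_TMEFF2 (adjusted p = 2.5e-06, edgeR). HTRA1, a secreted protease that cleaves IGF binding proteins, had the largest called fall of the list after GRB10 with DHT in sh_scramble, from 1.22 to 1.44 CPM to 0.353 to 0.781 CPM (log2 −1.23, standard error 0.39, adjusted p = 0.035, edgeR). These levels rest on 7 to 29 counts per library, and the call was lost in 5 of the 12 fits without 1 library (any of the 3 sh_scramble −DHT libraries or sh_scramble +DHT replicate 1 or 3), with an adjusted p of up to 0.119, and with either column alone.

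**Figure D5:**
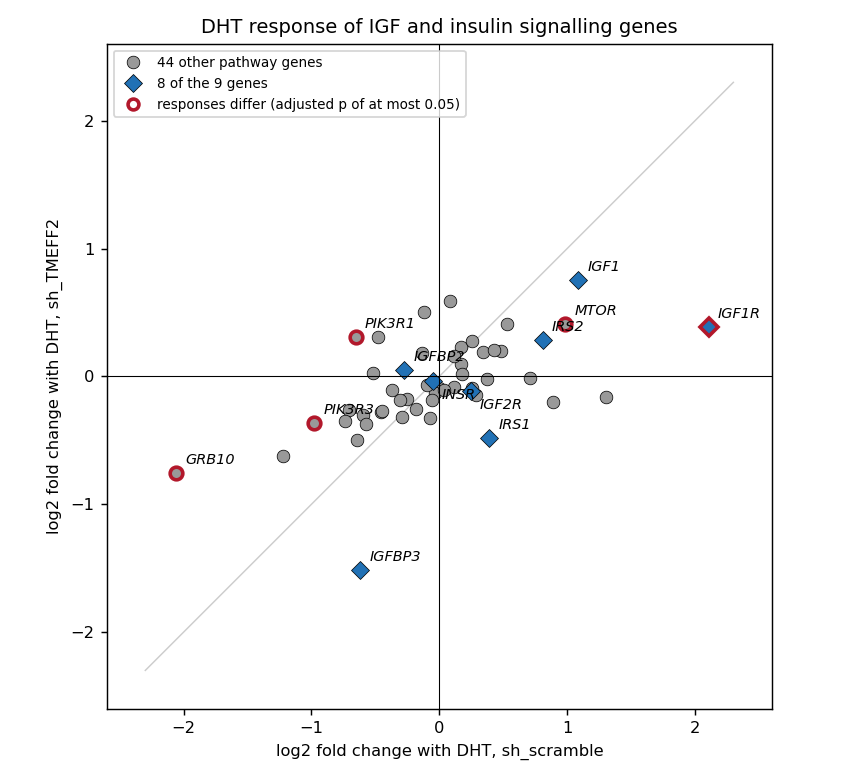
Log2 fold change with DHT in sh_TMEFF2 (vertical axis) against that in sh_scramble (horizontal axis) for 8 of the 9 genes (blue) and 44 other genes of IGF and insulin signalling (grey), with the line of equal response. Red outlines mark the 5 genes whose responses differed at an adjusted p of at most 0.05, with IGF1R at 2.11 and 0.39 and GRB10 at −2.06 and −0.75.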

How the data were processed

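RNA-seq of 12 LNCaP libraries was used. The authors removed contaminant reads, trimmed 75 bp paired-end reads with Trimmomatic, quantified them with kallisto 0.42.3 on the GRCh38 transcriptome, and deposited an estimated count per gene and column. These estimated counts, made by the authors from length-scaled TPM, are not whole numbers. The table has 24 columns, 2 per library, of which 0 could not be assigned. The 2 columns of a library were summed. A chi-square statistic relative to sampling noise was 2.61 to 2.89 (median over genes) between the 2 columns and 5.59 to 7.28 between replicates. Both are above what sampling alone gives. The first compares single columns and the second summed columns, which are deeper, so the values are not on the same scale. The depth was 19450866 to 22612046 counts per library, and intervals and floors of counts cover counting error only.

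Summed counts were rounded and tested in R 4.3.3 with edgeR 4.0.16: TMM, filterByExpr (minimum count 10), 1 coefficient per group over all 12 libraries, the quasi-likelihood test and Benjamini-Hochberg adjustment over 15419 genes. Standard errors and 95% intervals come from the same fit. Positions and transcript lengths are from the GENCODE annotation on GRCh38, and promoters from RefSeq. Levels per kb use the MANE Select transcript. The members and lists were chosen with earlier results of these data known. Of the list of 58 other genes, those named are up to 4 per comparison with the largest change among those called, without overlap of the groups and whose higher group averaged 1 CPM or more. The 2 genes most like each called member were chosen by Pearson correlation of log2 CPM (prior count 2). Alternatives were DESeq2 1.42.0, limma-voom (limma 3.58.1), other filters, library size only, the 6 libraries of a comparison, a block on replicate number, 1 library left out at a time and 1 column per library. The block within each line, leaving out both sh_TMEFF2 libraries numbered 3, and the alternatives for the other pathway genes, were added after the values were seen.

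Deviations from the group means correlated between same-numbered libraries of the −DHT and +DHT groups by 0.206 to 0.263 in sh_scramble and 0.175 to 0.303 in sh_TMEFF2, so the numbers were taken to pair these. Between the lines these correlations ran from 0.047 to 0.199 without DHT and from −0.048 to 0.208 with DHT. Over all pairs of groups 15 of 18 same-numbered values were over 0.1. Whether a number is shared by the lines is not stated, and the numbers were not taken to pair across them. On simulated counts for DHT in sh_scramble (15218 genes), edgeR called 73% of 100 genes changed 2-fold and 93% of 100 changed 3-fold, with 11 wrong calls.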

Additional observations from a re-analysis of the deposited data

Results flagged for a closer look

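The response to DHT differed between the lines, by a test of the difference itself, for 1 of the 8 tested members and 4 of the 44 other pathway genes, where 4.94% of all 15419 genes were called. The differences of log2 responses, sh_TMEFF2 minus sh_scramble, were −1.72 for IGF1R (adjusted p = 0.0020), 1.30 for GRB10 (adjusted p = 9.5e-04), 0.96 for PIK3R1 (adjusted p = 0.013), 0.61 for PIK3R3 (adjusted p = 0.0068) and −0.57 for MTOR (adjusted p = 0.0029, all edgeR's quasi-likelihood test over 12 libraries).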

How the results depend on the processing

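The 3 calls for IGF1R held under all alternatives run. The block changed no call of a member or named gene but those given in the text. Counts of called members moved in each of the 5 comparisons. Percentages in brackets are shares of all tested genes called under the same setting. With DHT in sh_scramble the count went from 3 to 2 with a mean above 5 CPM (11.3%), which left IRS2 untested, or the second columns (10.6%). It was 2 to 3 over the fits without 1 library (10.1% to 11.8%). In sh_TMEFF2 with DHT the count went from 0 to 1 with DESeq2 (5.06%) and without both libraries numbered 3 (3.66%). It went to 2 with the replicate block (5.43%) and with the block within each line (5.62%). It was 0 to 1 over the fits without 1 library (2.97% to 5.74%). Between the lines without DHT it went from 0 to 1 with DESeq2 (1.17%), with no filter (0.614%), with the replicate block (0.934%) and without both libraries numbered 3 (0.774%). It was 0 to 1 without 1 library (0.204% to 0.745%). With DHT it went from 2 to 1 with a mean above 5 CPM (6.73%), which left IRS2 untested, or the second columns (5.84%). It went to 4 with no filter (4.28%), the 6 libraries alone (6.45%) or the replicate block (7.34%). It was 2 to 4 without 1 library (5.07% to 6.78%). The difference of responses was called for 2 with the block within each line (9.05%). The gain with the block between the lines was IGFBP3 and, with DHT, also IRS1. That block treats the replicate numbers as shared by the lines, which was not established. For the 58 other genes, the count with DHT in sh_TMEFF2 went from 1 to 2 with no filter (3.08%), and was 1 to 2 without 1 library. Between the lines without DHT it went from 1 to 0 with the 6 libraries (0.309%), the first columns (0.323%) or without both libraries numbered 3 (0.774%). It was 0 to 1 there without 1 library. The difference of responses went from 4 to 8 with the block within each line (9.05%). Over all genes, the count between the lines without DHT went from 88 to 180 with DESeq2, 157 with no filter, 144 with the block, 46 with the 6 libraries or the first columns, 50 with the second, 32, 34 and 60 without sh_scramble −DHT replicate 1, 2 or 3, and 47, 34 and 117 without sh_TMEFF2 −DHT replicate 1, 2 or 3. The difference of responses went from 761 to 1205 with DESeq2, 494 with the second columns, 1396 with the block within each line, 465 without sh_scramble −DHT replicate 2, 489 without sh_scramble +DHT replicate 1 and 491 without sh_TMEFF2 −DHT replicate 2, and the response in sh_TMEFF2 from 753 to 466 without its +DHT replicate 3.

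Small, uncalled log2 values changed sign. With the second columns INSR was 0.23 and 0.0062 with DHT in sh_scramble and sh_TMEFF2, 0.29 and 0.063 between the lines without and with DHT, and −0.23 for the difference, IGFBP2 was −0.0037 with DHT in sh_TMEFF2, IGF1R 0.16 between the lines without DHT, and IGF1 0.19 with it. With the first columns IRS1 was 0.20 and IGF1 −0.15 between the lines without DHT. INSR between the lines with DHT was 0.053 with library size only, 0.00019 with DESeq2, 0.020 with a mean above 5 CPM and 0.0076 with limma-voom. Without both libraries numbered 3, INSR was 0.034 with DHT in sh_TMEFF2 and 0.011 between the lines with DHT, IRS1 0.12 between them without DHT, and IGF1 0.013 with it. Leaving out 1 library gave, with DHT, −0.18 to 0.11 for INSR in sh_scramble, and −0.16 to 0.066 for INSR, −0.72 to 0.081 for IRS1 and −0.032 to 0.11 for IGFBP2 in sh_TMEFF2. Between the lines without DHT it gave −0.18 to 0.12 for IGF1R, −0.096 to 0.10 for INSR, −0.65 to 0.14 for IRS1 and −0.054 to 0.37 for IGF1, with DHT −0.15 to 0.12 for INSR and −0.35 to 0.013 for IGF1, and for the difference −0.13 to 0.15 for INSR. The cause of these changes was not tested.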

Other observations

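PAPPA2, a protease of IGF binding proteins named here after its values were seen, had 83 counts in sh_TMEFF2 −DHT replicate 3 and 0 to 2 in the other 11 libraries, and the estimate was 83.0 in 1 column of that library and 0 in the other. Other genes of the list were at or near 0 in these cells: INS and IGFBP1 had 0 counts in every library, and IGFBP4, IGFBP6, IGFBP7, INSRR, IRS4 and DOK5 at most 3.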
